A study of Arabidopsis thaliana with 9 samples.

Results

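The 3 gibberellin receptor genes of Arabidopsis thaliana, GID1A (AT3G05120), GID1B (AT3G63010) and GID1C (AT5G27320), were followed across 9 Affymetrix arrays. Each is read by 1 probe set, chosen by its identifier and not by its values. These are 3 of 22746 probe sets without the array's controls, and all 3 were among the 17273 that the filter on low values kept. Each has a median ratio of 1, over the median of every array, so passing was fixed by the scaling. It says nothing about their signal level.

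The RNA came from inflorescences, with the older flowers past stage 12 removed, taken 4 h after treatment. All plants carried ga1-3 rga rgl2: the ga1-3 mutation blocks gibberellin synthesis, and the genes of the DELLA repressors RGA and RGL2 are mutated. The transgenic line carried in addition RGA-GR, a fusion of RGA with the glucocorticoid receptor that the steroid dexamethasone (Dex) activates. The groups, with 3 arrays each, were RGA-GR under mock treatment (RGA-GR mock), RGA-GR under Dex (RGA-GR Dex), and plants without the transgene under Dex (nontransgenic Dex). The labels give neither the promoter of the transgene nor the number of independent lines, and mock-treated nontransgenic plants were not analysed here. The nontransgenic group therefore differs from RGA-GR mock in both transgene and Dex. The design text speaks of 3 biologically independent sets.

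Gibberellin (GA) is a growth hormone that promotes stem elongation and, in flowers, the growth of stamens and petals. A GID1 protein that has bound GA takes hold of a DELLA protein, and the F-box protein SLY1 then marks that DELLA protein for destruction. The 3 receptors have overlapping roles, and plants that lack all of them are severely dwarfed and insensitive to GA. Receptor transcripts are known to be higher where GA signalling is low, and in seedlings GID1A and GID1B have been described as targets that DELLA proteins induce.

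The deposited values are linear ratios, and for each receptor gene the median ratio over the 9 arrays is exactly 1. A ratio thus places an array relative to the others for the same gene, and ratios of different genes do not compare their transcript levels. Differences between groups are log2 differences of group means (n = 3 arrays per group), with the moderated standard error (SE) of limma over the 9 arrays. Adjusted p values are those of limma with Benjamini-Hochberg adjustment over all 17273 probe sets, with a threshold of 0.05. The number of arrays limits the precision.

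Arrays differed in more than their groups. The median ratio of 24 probe sets for poly-A spike-ins, RNAs added to a sample before labelling, was 0.075 to 0.107 on replicates 1 and 2 of both RGA-GR groups and 1 to 2.39 on the other 5 arrays, which include all nontransgenic ones. The 25S rRNA control probe set ran from 0.495 to 26.2 on the RGA-GR arrays and from 0.0574 to 0.0838 on the nontransgenic arrays. Pollen markers were lower and green tissue markers higher in the RGA-GR arrays than in the nontransgenic ones: the median log2 ratio of 5 pollen genes was -1.06 to 0.42 in RGA-GR mock, -3.25 to 0.00 in RGA-GR Dex and 0.88 to 1.30 in nontransgenic Dex, and that of 2 green tissue genes (RCA and LHCB4.1) was 0.00 to 0.20, -0.04 to 0.06 and -0.94 to -0.86. Against nontransgenic Dex, limma called 4 of the 5 pollen genes lower in RGA-GR Dex and 3 in RGA-GR mock, and both green tissue genes higher in each. Over all probe sets, 9.44% were called lower and 17.5% higher in RGA-GR Dex, and 6.19% and 9.07% in RGA-GR mock. In a bulk sample, fewer cells of a type and less RNA per cell cannot be told apart. The table gives ratios only, so the presence of floral RNA could not be checked against it, and no probe set names any of the 5 floral identity genes of the list alone.

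GID1A separated the transgenic line from the nontransgenic plants, whichever treatment the line had received. Its ratios were 0.320, 0.461 and 0.554 on nontransgenic Dex replicates 1 to 3, 1.09, 1 and 1.12 on RGA-GR mock replicates 1 to 3, and 0.839, 1.27 and 1.46 on RGA-GR Dex replicates 1 to 3. All nontransgenic arrays lay below all arrays of the transgenic line, an arrangement that 18.7% of the 17273 probe sets shared. The mock and Dex arrays of the line overlapped. The mock arrays were also the closest together, their highest ratio being 1.12-fold above their lowest, against 1.74-fold in RGA-GR Dex and 1.73-fold in nontransgenic Dex.

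GID1B separated RGA-GR Dex from both other groups. Its ratios were 1.22, 0.970 and 0.872 on nontransgenic Dex replicates 1 to 3, 1, 0.811 and 0.822 on RGA-GR mock, and 1.48, 2.12 and 1.79 on RGA-GR Dex. The lowest RGA-GR Dex array stood above each of the other 6 arrays, an arrangement that 4.53% of the 17273 probe sets shared. Mock and nontransgenic arrays overlapped.

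GID1C lay between the patterns of the other receptors. Its ratios were 0.488, 0.731 and 0.576 on nontransgenic Dex replicates 1 to 3, 0.624, 1 and 1.54 on RGA-GR mock, and 1.33, 1.72 and 1.54 on RGA-GR Dex. RGA-GR Dex arrays lay above the nontransgenic arrays without overlap, as in 28.6% of all probe sets, and the mock arrays spread over the range of both. The SD of the log2 ratios was 0.65 in RGA-GR mock, against 0.19 in RGA-GR Dex and 0.29 in nontransgenic Dex (n = 3 each).

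**Figure D1:**
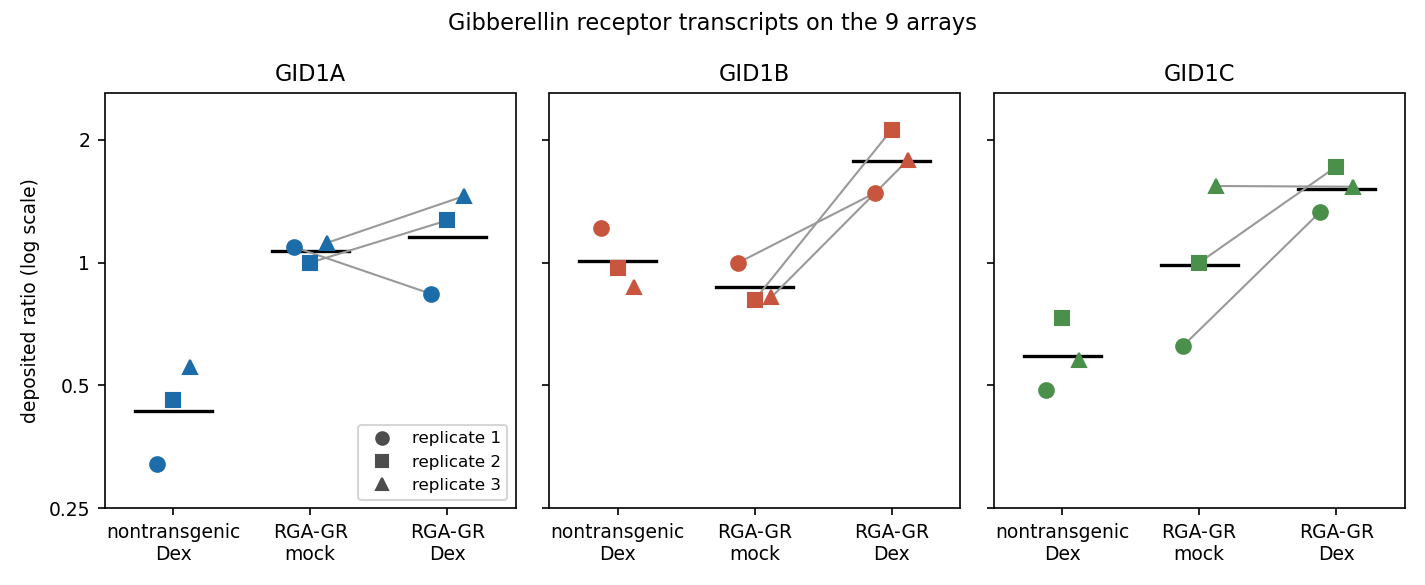
Deposited ratio (log scale) of GID1A, GID1B and GID1C on each of the 9 arrays, with symbols for replicates, a black bar for the geometric mean of each group, and grey lines joining the mock and Dex arrays that share a number in the RGA-GR line. GID1A is low in the nontransgenic group (0.320 to 0.554), GID1B is high in RGA-GR Dex (1.48 to 2.12), and GID1C in RGA-GR mock runs from 0.624 to 1.54.

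By group means, GID1A and GID1C shared an order, and GID1B differed from it in the place of mock and nontransgenic arrays, which overlapped. For GID1A the mean log2 ratio was -1.20 ± 0.40 (SD, n = 3) in nontransgenic Dex, 0.10 ± 0.09 in RGA-GR mock and 0.21 ± 0.41 in RGA-GR Dex, where the neighbours mock and Dex did not differ beyond their spread. For GID1B the order was RGA-GR mock (-0.20 ± 0.17), nontransgenic Dex (0.01 ± 0.25) and RGA-GR Dex (0.83 ± 0.26), with the neighbours mock and nontransgenic within their spread. For GID1C the order was nontransgenic Dex (-0.76 ± 0.29), RGA-GR mock (-0.02 ± 0.65) and RGA-GR Dex (0.60 ± 0.19), and the mock arrays overlapped both neighbours.

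Dex was set against mock within the RGA-GR line to find transcripts that respond when RGA activity is brought back. Dex itself also differs between these groups. GID1B was 2.04-fold higher in Dex than in mock (log2 difference 1.03 ± 0.20 SE, 95% interval 0.58 to 1.47), in all 3 pairs of arrays. GID1C was 1.54-fold higher (0.62 ± 0.31, interval -0.06 to 1.31), a difference that was 0.29 without RGA-GR mock replicate 1 and 0.94 without RGA-GR mock replicate 3. GID1A was 1.08-fold higher (0.11 ± 0.33, interval -0.61 to 0.84), and its difference ran from -0.05 without RGA-GR Dex replicate 3 to 0.35 without RGA-GR Dex replicate 1. None of the receptor genes passed in limma over all probe sets, with an adjusted p of 0.453 for GID1B, 0.597 for GID1C and 0.930 for GID1A. Nor did any other probe set (0% of 17273), although 1525 (8.83%) had an unadjusted p under 0.05 in limma and 1 probe set was called with eBayes without trend. With the replicate pairs as a block within the line 13 probe sets were called, none of them a receptor gene (GID1B at an adjusted p of 0.0691 in limma). The interval of GID1A runs from a fall to a rise, so a response to Dex within it was not detectable with these arrays.

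GID1B stood near the top of this comparison before adjustment. Only 12 of 17273 probe sets had a smaller unadjusted limma p, and 2.5% had a larger difference. Its Dex arrays lay above its mock arrays without overlap, as did those of 7.28% of all probe sets. GID1C ranked lower, with 2054 probe sets at a smaller unadjusted p and 7.2% at a larger difference. GID1A lay in the middle of the distribution, where 45.8% of probe sets had a larger difference. The median over all probe sets was 0.08.

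By pair, the receptor genes differed in which arrays moved. GID1B was 1.48-fold, 2.62-fold and 2.18-fold higher in Dex than in mock in pairs 1 to 3. GID1C was 2.13-fold and 1.72-fold higher in pairs 1 and 2 and at a ratio of 0.996 in pair 3, where the mock array already stood at 1.54. GID1A was 1.30-fold lower in pair 1 and 1.27-fold and 1.30-fold higher in pairs 2 and 3. Pair 1 thus held the smallest GID1B difference and the largest GID1C difference.

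Within the arrays that lack poly-A spike-in signal, which hold pairs 1 and 2, the log2 difference was 0.98 for GID1B, 0.94 for GID1C and -0.02 for GID1A. In the 5 arrays with that signal, which hold pair 3, it was 1.12, -0.01 and 0.38. Whether the differences changed between these sets of arrays was not tested. The 25S rRNA control ratio was also higher in Dex than in mock in every pair, and the 5 pollen genes had a median difference of -1.43 with none called. The part of either in these differences was not tested.

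**Figure D2:**
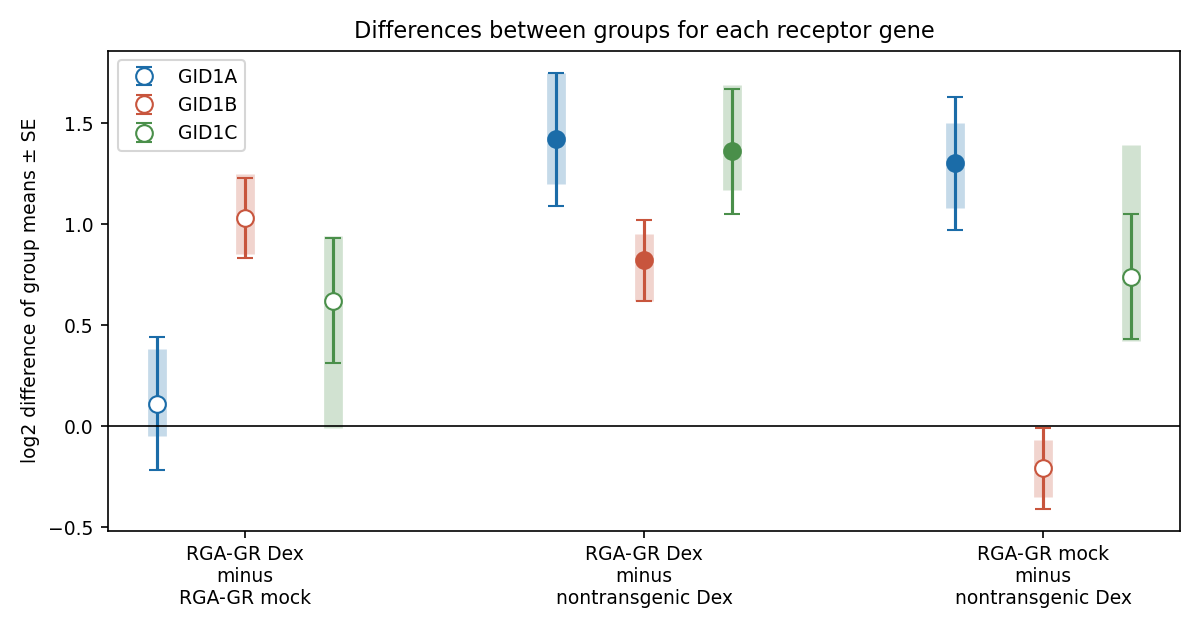
Log2 difference of group means (circles) with its SE (bars) for each receptor gene in each comparison, filled where the adjusted p of limma was under 0.05 and open where it was not, and in pale bands the range over all alternative settings. GID1B has its largest difference in RGA-GR Dex minus RGA-GR mock (1.03), while GID1A has 0.11 there and 1.30 in RGA-GR mock minus nontransgenic Dex.

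With Dex given to both sides, the RGA-GR line was then set against plants without the transgene. All 3 receptor genes rose: GID1A by 1.42 ± 0.33 on the log2 scale (interval 0.69 to 2.14, adjusted p = 0.0128 in limma), GID1C by 1.36 ± 0.31 (interval 0.68 to 2.05, adjusted p = 0.0122) and GID1B by 0.82 ± 0.20 (interval 0.37 to 1.26, adjusted p = 0.0157). Changes were common here. Of 17273 probe sets, 27.0% were called, 17.5% higher and 9.44% lower, and in 28.6% the RGA-GR Dex arrays all lay above the nontransgenic ones, as they did for each receptor gene. A larger difference was found in 5.1% of probe sets for GID1A, in 5.7% for GID1C and in 17.0% for GID1B, and the median over all was 0.14. The split over all probe sets depended on the scaling: 3029 were higher and 1631 lower as deposited, against 1751 and 2253 once array medians were subtracted and 1553 and 1353 after quantile normalization. Array medians were lower on each nontransgenic array than on any RGA-GR array. The receptor genes kept their calls under both scalings. Once array medians were subtracted, the differences were 1.22 for GID1A, 0.62 for GID1B and 1.17 for GID1C. GID1B then passed narrowly (adjusted p = 0.0465 in limma). After quantile normalization the differences were 1.23, 0.82 and 1.23.

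Each RGA-GR Dex array stood above the nontransgenic mean of each receptor gene. The log2 excess of replicates 1 to 3 was 0.95, 1.55 and 1.75 for GID1A, 0.56, 1.07 and 0.82 for GID1B, and 1.17, 1.54 and 1.38 for GID1C. Replicate 1 was the lowest for every one of the 3 genes. Without RGA-GR Dex replicate 2 none of them passed in limma, at an adjusted p of 0.0524 for GID1A, 0.0620 for GID1B and 0.0589 for GID1C, though the differences stayed at 1.35, 0.69 and 1.28. The count of probe sets called fell from 4660 to 1874 without that array, and to 2961 or 3099 without nontransgenic Dex replicate 1 or 2. GID1B also missed the threshold without nontransgenic Dex replicate 2 (adjusted p = 0.0797 in limma) or replicate 3 (0.105).

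The poly-A spike-in signal, present on all nontransgenic arrays and on replicate 3 of each RGA-GR group, moved with this comparison. With that signal as a term in the fit, the differences were 1.61 for GID1A, 0.78 for GID1B and 1.69 for GID1C, and each passed (adjusted p = 0.0206, 0.0465 and 0.0133 in limma). In the 5 arrays with the signal they were 1.75, 0.82 and 1.38, with GID1B past the threshold no longer (adjusted p = 0.0708). These 5 arrays hold 1 RGA-GR Dex array, whose spread is taken to be that of the nontransgenic group. The lower pollen and higher green tissue markers and the higher 25S rRNA signal of the transgenic line move with this comparison too, and their part in it was not tested.

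Mock-treated plants of the line were last set against the nontransgenic plants. These groups differ in Dex as well as in the transgene, and the parts of the 2 cannot be told apart. GID1A rose, 2.46-fold (1.30 ± 0.33, interval 0.58 to 2.02, adjusted p = 0.0297 in limma), and its 3 mock arrays exceeded the nontransgenic mean by 1.33, 1.20 and 1.37 on the log2 scale. GID1C was 1.67-fold higher without passing (0.74 ± 0.31, adjusted p = 0.124), with an excess of 0.08, 0.76 and 1.39 on replicates 1 to 3. GID1B was 1.16-fold lower without passing (-0.21 ± 0.20, interval -0.65 to 0.23, adjusted p = 0.495), and its mock arrays stood at -0.01, -0.32 and -0.30. Thus 1 of 3 receptor genes was called higher, where 9.07% of all probe sets were (15.3% in either direction, 6.19% lower), and the mock arrays of GID1A lay above the nontransgenic ones without overlap, as in 23.3% of probe sets. Over all probe sets 1566 were called higher and 1069 lower, against 839 and 1412 once array medians were subtracted.

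The call for GID1A was a narrow one. It was lost in 9 of 24 alternatives, among them quantile normalization (adjusted p = 0.0575 in limma) and leaving out RGA-GR mock replicate 1, 2 or 3 or nontransgenic Dex replicate 1 or 2, with a difference between 1.08 and 1.5 over the 24. With the poly-A spike-in signal as a term it was 1.5 (adjusted p = 0.0459), and in the 5 arrays with that signal 1.37 (adjusted p = 0.113). GID1C passed without RGA-GR mock replicate 1 (1.07, adjusted p = 0.0400), the array on which it was lowest within the line. The count of all probe sets called fell from 2635 to 0 without RGA-GR mock replicate 2 (GID1A at an adjusted p of 0.0864), and to between 1116 and 1357 without RGA-GR mock replicate 1 or any one nontransgenic array.

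Each of these comparisons shares a group of arrays with each of the others, and by construction RGA-GR Dex minus nontransgenic Dex is the sum of the other two. For GID1A the sum of 1.42 was made of 0.11 between Dex and mock and 1.30 between mock and nontransgenic plants. For GID1B the 0.82 was made of 1.03 and -0.21, and for GID1C the 1.36 of 0.62 and 0.74.

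**Figure D3:**
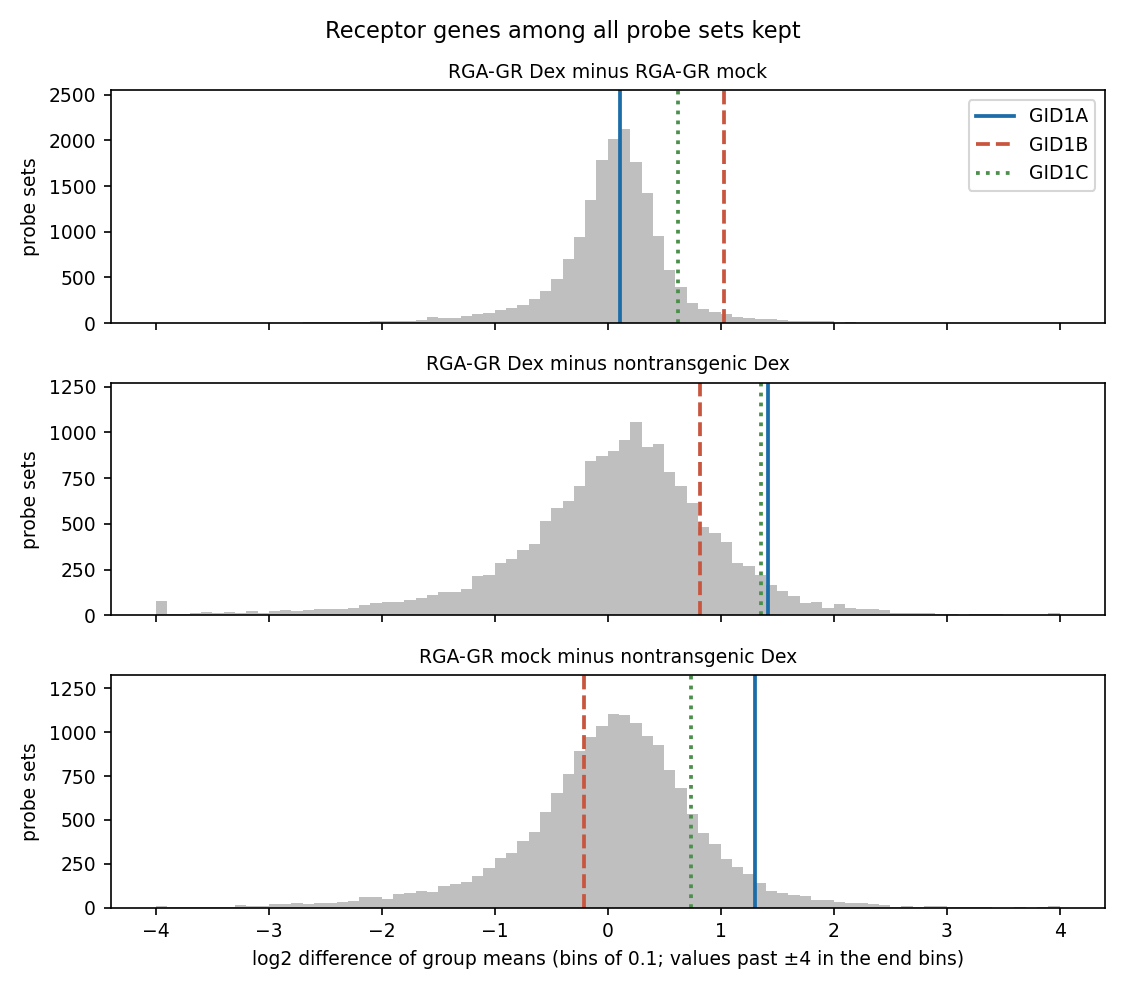
Number of probe sets by log2 difference of group means in each comparison (grey bars, 17273 probe sets kept), with vertical lines at the values of the 3 receptor genes. In RGA-GR Dex minus RGA-GR mock GID1A (0.11) lies near the peak and GID1B (1.03) in the upper tail, while in RGA-GR mock minus nontransgenic Dex GID1B (-0.21) lies near the peak and GID1A (1.30) in the upper tail.

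Whether the receptor genes differed from each other was examined on the same array. A shift that is equal for 2 genes on an array cancels in the difference of their log2 ratios. Whatever acts on the 2 genes unequally, as a difference in cell types can, stays in it. The difference GID1B minus GID1A was 1.93, 1.07 and 0.65 on nontransgenic Dex replicates 1 to 3, -0.13, -0.30 and -0.44 on RGA-GR mock, and 0.82, 0.74 and 0.30 on RGA-GR Dex. All mock arrays lay below all arrays of the other groups. How common this is among other pairs of probe sets was not examined. Between Dex and mock of the transgenic line it shifted by 0.91, from -0.29 ± 0.16 (SD, n = 3) to 0.62 ± 0.28, with an exact permutation p of 0.1 (two-sided). Between mock and nontransgenic Dex it shifted by -1.51, again with an exact permutation p of 0.1.

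An exact test of 3 arrays against 3 cannot go below 0.1, so no shift could pass 0.05. Over the 9 tests (3 pairs of genes in 3 comparisons), the groups did not overlap in 3, and the adjusted exact permutation p of these was 0.3. That count was not compared with other pairs of probe sets. The 3 without overlap were the shifts above and GID1B minus GID1C between RGA-GR Dex and nontransgenic Dex, which shifted by -0.55. GID1C minus GID1A shifted by -0.05 ± 0.26 (SE from the SDs of the groups) in that comparison, with an exact permutation p of 0.9. In the remaining tests the arrays overlapped and the exact permutation p was 0.2 to 0.4.

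**Figure D4:**
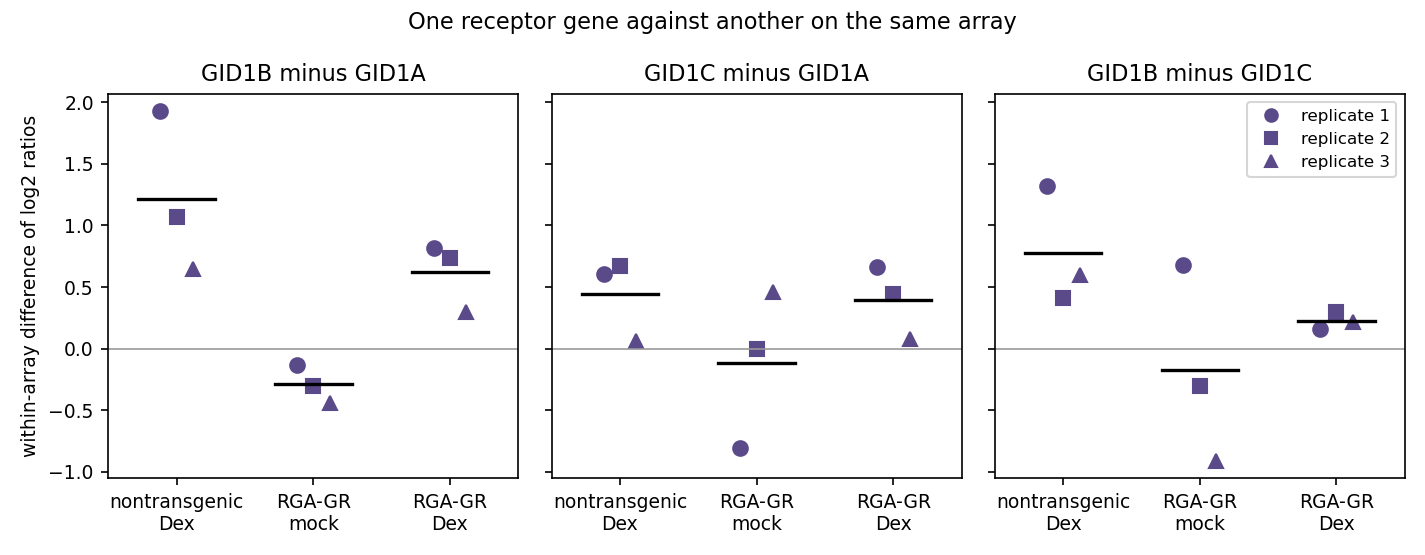
Difference between the log2 ratios of 2 receptor genes on the same array, for each pair of genes, by group, with symbols for replicates and a black bar for the group mean. GID1B minus GID1A is lower on each of the 3 RGA-GR mock arrays (-0.44 to -0.13) than on any of the 6 Dex-treated arrays (0.30 to 1.93).

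Other genes of the pathway were taken from lists of loci. Of 11 loci of GA signalling, 4 are named by a probe set of their own, and all 4 had higher means in RGA-GR Dex than in both other groups. The median probe set was also higher there, by 0.08 against RGA-GR mock and 0.14 against nontransgenic Dex. SNE, a relative of SLY1 that can also act on DELLA proteins, rose against nontransgenic Dex by 0.87 ± 0.19 (adjusted p = 0.0114 in limma), and SPY, which encodes an O-fucosyltransferase that modifies DELLA proteins, by 0.57 ± 0.17 (adjusted p = 0.0324). SLY1 (0.29 ± 0.16) and SEC, which encodes an O-GlcNAc transferase acting on DELLA proteins (0.27 ± 0.21), did not pass there. Over all probe sets, 17.5% were called higher in that comparison. Between Dex and mock of the line the values were 0.53 for SNE, 0.37 for SPY, 0.25 for SLY1 and 0.21 for SEC, and none passed. Between mock and nontransgenic Dex the 4 genes ran from 0.04 to 0.34, with no call.

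SNE gave ratios of 0.732, 0.902 and 0.679 on nontransgenic Dex replicates 1 to 3, 1, 1.10 and 0.825 on RGA-GR mock, and 1.37, 1.23 and 1.62 on RGA-GR Dex. Its Dex arrays, like those of GID1B, lay above the other 6 without overlap. SPY showed the same arrangement, with 0.801 to 1 in nontransgenic Dex, 0.938 to 1.13 in RGA-GR mock and 1.15 to 1.5 in RGA-GR Dex. The arrangement of SNE and SPY was shared by 4.53% of all probe sets. SPY kept its call against nontransgenic Dex in 14 of 24 alternatives and SNE in 24 of 24. SPY lost it under quantile normalization (0.42, adjusted p = 0.112 in limma) and with array medians subtracted (0.38, adjusted p = 0.129). With array medians subtracted SNE stood at 0.68, SLY1 at 0.10 and SEC at 0.08 in that comparison. The median of the 4 genes was 0.31 for Dex against mock, 0.43 for RGA-GR Dex against nontransgenic Dex and 0.13 for mock against nontransgenic Dex, beside 0.08, 0.14 and 0.07 over all probe sets. The genes of GA synthesis (14 loci) and GA inactivation (9 loci) are not named alone by any probe set, and the DELLA genes themselves are not analysed here.

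Of 9 GASA loci, which encode small cysteine-rich proteins of a GA-regulated family, 2 are named. GASA9 (AT1G22690) rose in RGA-GR mock against nontransgenic Dex by 1.73 ± 0.25 (adjusted p = 0.0129 in limma) and in RGA-GR Dex by 1.06 ± 0.25 (adjusted p = 0.0138). Its ratios were 0.900 to 1.22 in RGA-GR Dex and 1.30 to 2.25 in RGA-GR mock, a difference of -0.67 ± 0.25 that did not pass. GASA10 (AT5G59845) fell in RGA-GR Dex against nontransgenic Dex by 1.86 ± 0.61 (adjusted p = 0.0467 in limma), a call kept in 8 of 24 alternatives. Its ratios were 0.967, 0.152 and 0.210 on RGA-GR Dex replicates 1 to 3 and between 0.977 and 1.23 on the other 6 arrays, so replicate 1 showed almost none of the fall. For Dex against mock its difference was -1.68 ± 0.61 and did not pass.

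The seedling DELLA targets other than receptors, a list of 6 loci with 3 named, had no call in any comparison. Of all probe sets, 27.0% were called in RGA-GR Dex and 15.3% in RGA-GR mock against nontransgenic Dex, and 0% for Dex against mock. With only 3 genes, having no call is little different from those shares. For Dex against mock XERICO, which encodes a RING-type protein linked to abscisic acid, differed by 0.25 ± 0.32, and the transcription factor genes BHLH137 (AT5G50915) and BHLH154 (AT2G31730) by -0.47 ± 0.28 and -0.51 ± 0.25. Against nontransgenic Dex the 3 genes ran from -0.52 to -0.08 in RGA-GR Dex. GID1A and GID1B, targets from the same seedling work, lay at 1.42 and 0.82 in that comparison. For Dex against mock GID1A lay at 0.11 and GID1B at 1.03, and neither passed.

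The receptors belong by sequence to the plant carboxylesterase (CXE) family, most members of which are not GA receptors. Of 17 other CXE loci, 12 are named and 11 passed the filter, CXE1, CXE4, CXE6, CXE7, CXE8, CXE9, CXE11, CXE15, CXE16, CXE18 and CXE20, while CXE2 did not. In RGA-GR Dex against nontransgenic Dex 2 of the 11 were called higher and none lower, where 17.5% and 9.44% of all probe sets were, and the median was -0.02. The same counts held for RGA-GR mock against nontransgenic Dex, where 9.07% of all probe sets were called higher and 6.19% lower, with a median of 0.10. The first count is near the share over all probe sets. For Dex against mock there was no call and the median was 0.06. The 2 called were CXE7 (AT2G03550), which rose by 1.48 ± 0.29 in RGA-GR Dex (adjusted p = 0.00768 in limma) and 1.26 ± 0.29 in RGA-GR mock (adjusted p = 0.0243), and CXE15 (AT5G06570), which rose by 2.12 ± 0.33 (adjusted p = 0.00432) and 1.57 ± 0.33 (adjusted p = 0.0203). For both, as for GID1A, all arrays of the line lay above all nontransgenic ones: CXE15 gave 0.258 to 0.456 in nontransgenic Dex, 0.986 to 1.08 in RGA-GR mock and 1.15 to 2.10 in RGA-GR Dex, and CXE7 gave 0.407 to 0.599, 1 to 1.47 and 0.933 to 1.93. The mock and Dex arrays of the line overlapped for CXE7 and did not for CXE15, whose Dex arrays were the higher. All Dex arrays lay above all mock arrays in 7.28% of all probe sets. In 18.7% of all probe sets all 6 arrays of the line lay above all nontransgenic ones.

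**Figure D5:**
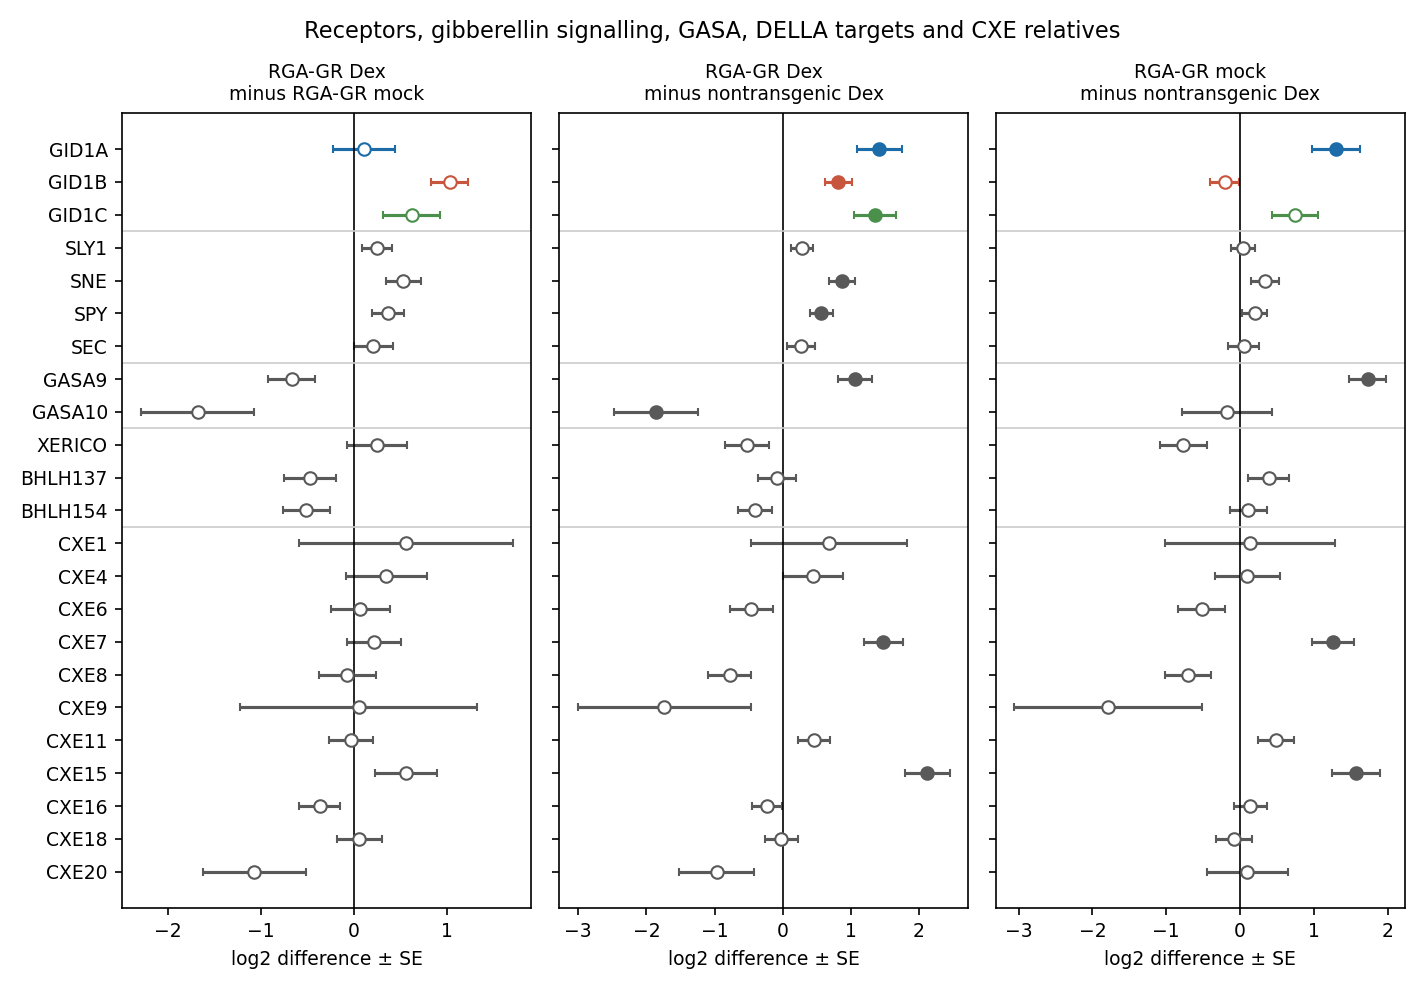
Log2 difference of group means with SE for the 3 receptor genes and, from top to bottom between grey lines, the GA signalling, GASA, seedling DELLA target and CXE genes that passed the filter, in each comparison, filled where the adjusted p of limma was under 0.05. No circle is filled in RGA-GR Dex minus RGA-GR mock, and GID1A, GASA9, CXE7 and CXE15 are filled in both other panels.

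The genes with the patterns most like each receptor gene were found by the Pearson correlation of log2 ratios over the 9 arrays, among 9625 other probe sets that name 1 gene. This is a description, in which all points share 3 groups and, in the transgenic line, pairs. The genes were picked for their likeness, so an arrangement shared with the receptor gene follows from the choice. Over all probe sets, 18.7% had the arrangement of GID1A and 4.53% that of GID1B. Nearest to GID1A were AT1G73970 (r = 0.989), AT3G09580 (0.988) and AT1G11950 (0.976). All of them, like GID1A, were lower on every nontransgenic array than on any array of the line, with ratios of 0.594 to 0.838, 0.394 to 0.679 and 0.690 to 0.795 in nontransgenic Dex. Nearest to GID1B were AT1G04390 (r = 0.978), AT1G22660 (0.956) and AT4G35070 (0.938), for each of which the RGA-GR Dex arrays lay above the other 6. Of these AT1G04390 had the largest difference between Dex and mock, 1.18, beside 1.03 for GID1B, and its ratios in RGA-GR Dex ran from 1.44 to 2.05. Nearest to GID1C were AT3G13580 (r = 0.967), AT4G17245 (0.963) and AT2G41410 (0.962). Among the receptors, by the same measure, r was 0.784 between GID1A and GID1C, 0.5 between GID1B and GID1C and 0.322 between GID1A and GID1B.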

How the data were processed

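RNA was extracted with a Qiagen kit and labelled with biotin for Affymetrix arrays, per the labels' protocols. Of software, the submitters' processing notes name GCOS. Its version, the scaling of arrays and the handling of dim probe sets are not given in the sources used here. The deposited values are linear ratios. The row median over the 9 arrays is exactly 1 in 15112 of 22810 rows (66.3%) and under 1 in 7698, as read from the values, and what the latter were divided by is not stated. Signal intensities had been provided for beforehand, so the filter and the trend of the prior variance mean less on ratios.

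The log2 of each ratio was used as deposited, with no offset and no further scaling. Array medians of the log2 ratios spanned 0.217. They were -0.286 to -0.243 on the nontransgenic arrays and -0.178 to -0.069 on the RGA-GR arrays. The 64 control probe sets were left out. The filter kept 17273 of 22746 probe sets, those over the 40th percentile of an array in 3 or more of the 9. In the platform's annotation 13513 probe sets have 1 gene, 503 have several and 8730 have none, and 13436 of the 13513 matched the gene table of assembly TAIR10.1, used for names only. Two-sided tests came from lmFit and eBayes (trend on) of limma 3.58.1, run under R 4.3.3 over all 9 arrays with 6 residual degrees of freedom, and p was adjusted by Benjamini-Hochberg (threshold 0.05). The script was tested on simulated data. Single differences between members were compared with exact permutation tests (scipy 1.17.1). Figures were drawn with matplotlib 3.10.9.

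The members and gene lists were chosen with earlier results of these data known. Genes of GA signalling and the CXE family were named whatever their values, other list genes where they passed or were among the 3 lowest p for Dex against mock, and like genes as the 3 highest correlations. AT1G04390 was singled out among them after its values were seen. Markers of pollen, tapetum, early anther, green tissue and floral identity were listed to compare samples. The median log2 ratio ran from -0.79 to 0.00 in RGA-GR Dex, -0.22 to -0.05 in RGA-GR mock and 0.00 to 0.37 in nontransgenic Dex for 3 tapetum genes, and from -0.56 to 0.36, -0.12 to 0.11 and -0.22 to 0.35 for 3 early anther genes. Against nontransgenic Dex, the tapetum genes SHT (-2.01) and ATA27 (-1.15) were called lower in RGA-GR Dex, where 9.44% of all probe sets were. In RGA-GR mock SHT (-1.93) and the early anther gene EMS1 (-0.94) were called lower, where 6.19% of all probe sets were. No other gene of these 2 lists was called.

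In the transgenic line, same-numbered arrays deviated together from their group means (r = 0.332, 0.118 and 0.325 across probe sets), and so count here as pairs, a reading of the values that the labels do not give. Nontransgenic numbers did not pair with them, with r between -0.039 and 0.036. No block entered the main fit, and results of fits with a block or an added term are named as such. Alternatives were other scalings, an offset of 0.0894, other filters and priors, only the 6 arrays compared, replicate blocks, the poly-A spike-in signal (a median ratio over 0.5) as a term or a subset, and arrays or pairs left out.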

Additional observations from a re-analysis of the deposited data

Results flagged for a closer look

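The 25S rRNA control probe set, which enters none of the tests, was higher in the transgenic line than in the nontransgenic Dex group, by 4.95 on the log2 scale in RGA-GR mock and by 7.55 in RGA-GR Dex. It was picked out as a signal outside the main measurement that stands above the control group, and it moves with both comparisons in which receptor genes passed. Its part in them was not tested.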

How the results depend on the processing

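Of the calls for receptor genes against nontransgenic Dex, those in RGA-GR Dex were kept in 21 (GID1A), 19 (GID1B) and 22 (GID1C) of 24 alternatives and that of GID1A in RGA-GR mock in 15. None passed for Dex against mock in any of 25, where the lowest adjusted p in limma was 0.0655 for GID1B. GID1A reversed there under quantile normalization (-0.02), in the arrays without poly-A spike-in signal (-0.02) and without pair 2 (-0.00) or 3 (-0.02), and GID1C in the arrays with that signal (-0.01), as did BHLH154 (0.07). Calls against nontransgenic Dex were lost, for RGA-GR Dex, without pair 2 (GID1A 1.35, GID1B 0.69, GID1C 1.28), without pair 3 (GID1A 1.25) and, for GID1B, on the 5 arrays that have spike-in signal (0.82). For RGA-GR mock, GID1A lost its call under quantile normalization (1.25), in the arrays with that signal (1.37) and without pair 2 (1.35) or 3 (1.27), and GID1C gained one without pair 1 (1.07). The causes were not tested.

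Leaving out 1 array at a time, GID1A ran from -0.05 to 0.35 for Dex against mock, 1.20 to 1.65 for RGA-GR Dex and 1.08 to 1.48 for RGA-GR mock against nontransgenic Dex. GID1B ran from 0.90 to 1.16 for Dex against mock and 0.69 to 0.95 for RGA-GR Dex, GID1C from 0.29 to 0.94 for Dex against mock, 1.23 to 1.52 for RGA-GR Dex and 0.42 to 1.07 for RGA-GR mock, and XERICO from -0.05 to 0.50 for Dex against mock. Counts of all calls ran from 0 to 15, 1874 to 4881 and 0 to 2773. For Dex against mock the count was 1 with eBayes without trend, 50 in the arrays with spike-in signal and 2 without pair 1. For RGA-GR Dex it was 2906 under quantile normalization and 1134 without pair 2. For RGA-GR mock it was 1123 under quantile normalization, 1412 with the spike-in signal as a term, 1029 in the arrays with it and 0 without pair 2.

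With the replicate pairs as a block within the transgenic line, 13 probe sets passed for Dex against mock, none of them a receptor gene (GID1B 1.03, adjusted p = 0.0691 in limma). The block changed no call for a receptor gene. With 3 arrays a group, and 1 or 2 where arrays were left out, the number of arrays limits all of these tests. No array depth or background is given with the ratios.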
